A study of Mus musculus with 4 samples.

Results

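The genes described here carry cells through mitosis. They were chosen by symbol, with earlier results of these data known, as a module of 45 mitosis and kinetochore genes. These encode CDK1 and its cyclins, mitotic kinases, checkpoint proteins, kinetochore subunits, motor proteins, cytokinesis factors and proteins that shape chromosomes. The rule took probes annotated with a single gene symbol and, of several probes of a gene, the one with the highest mean over the arrays. It found 43 of the 45 genes among the 22180 genes measured, each with 1 probe. No probe of Ccnb1, which encodes cyclin B1, was named in the annotation used here, and Ncapg, a condensin subunit, was named only together with another gene, so neither has a value.

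The RNA came from B16-OVA, a melanoma line of the mouse engineered to express ovalbumin, and was hybridised to 4 Affymetrix gene arrays. The mock group had 2 arrays, from cells labelled mock transfected. The AT90ES group had 2 arrays, from cells that the labels and the treatment text tie to a double-stranded DNA 90 bases long, given with Lipofectamine, a lipid carrier, for 6 hours. All 4 arrays carry 1 treatment text, which leaves the content of the mock transfection unstated, and effects of the DNA and of any other difference in the transfection cannot be told apart. Both groups were B16-OVA cells in the same medium with serum. Nothing in the labels says that the 2 arrays of a group came from separate cultures, so p-values measure the spread between these arrays, which may be technical. The question the design puts is which RNAs differ 6 hours after DNA enters the cells.

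Mitosis is prepared in G2 phase, when the RNAs of many mitotic proteins reach their highest level in the cell cycle, and the same RNAs are kept low in resting cells. Their promoters often hold CCAAT boxes, bound by NF-Y, and a short element near the start called the cell cycle genes homology region (CHR), bound by MuvB complexes. MuvB represses these genes as part of the DREAM complex and activates them together with B-MYB and FOXM1. In mitosis itself, CDK1 with its cyclins drives entry, kinetochores tie chromosomes to spindle microtubules, the spindle checkpoint holds back separase until all chromosomes are attached, and the central spindle then places the cleavage furrow.

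The mitosis genes had slightly lower levels in the AT90ES cells, and none of them passed the adjusted threshold. Of the 43 genes measured, 41 had a negative log2 fold change of AT90ES over mock, against 54.6% of all genes, and the median was -0.29, or 81.7% of the mock level, against a median of -0.02 over all genes. Values ran from -0.51 for Prc1 to 0.16 for Pttg1. In 38 genes, 88.4% of those measured, both AT90ES arrays were below both mock arrays, which held for 22.1% of all genes. In Pttg1 and Spc25 both AT90ES arrays were above both mock arrays, as in 17.7% of all genes, and in Cdc25b, Cdc25c and Ncaph the groups overlapped.

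With limma and Benjamini-Hochberg adjustment over all genes, 0 of the 43 genes were lower at an adjusted p under 0.05, where 0% of all genes passed as lower, and 0 were higher, where 0.415% passed as higher. The smallest adjusted p among them was 0.308, for Kif2c. At an unadjusted p under 0.05, 20 genes or 46.5% were lower, against 4.59% of all genes, and 0 were higher, against 4.5%. That count of 20 was 9 with every array centred on its median, where the share over all genes was not counted. It fell when any 1 array was left out. The median log2 fold change of the module was then -0.32 without mock 1, -0.26 without mock 2, -0.32 without AT90ES 1 and -0.29 without AT90ES 2. A limma fit that lets the variance depend on the mean level called 16 of the 43 genes lower at an adjusted p under 0.05, or 37.2%, against 0.73% of all genes, and 0 higher, against 1.94%. That count fell when either mock array was left out and rose when either AT90ES array was left out. An exact permutation test of 2 arrays against 2 cannot go below p = 0.333, so none is given for single genes.

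The genes lie at medium to high levels, with means over the arrays from 6.37 to 10.80 on the log2 scale, where 7643 genes lie. Among these, 48.4% had a negative log2 fold change and 24% had both AT90ES arrays below both mock arrays. An unadjusted p under 0.05 as lower was reached by 4.37% of them, and 1.95% passed as lower in the fit with an intensity trend. Genes of 1 programme vary together, so the 43 values are not independent, and how far a shared difference between cultures or preparations moved them was not tested. The module was also chosen with earlier results of these data known, so the shares set against all genes are a description. In bulk RNA, fewer cells in G2 and mitosis and less of these RNAs per cell cannot be told apart.

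The group order, AT90ES below mock, held across most of the genes, while the order within a group varied. As the median over the 43 genes of the difference from the mock mean, mock 1 stood at -0.02, mock 2 at 0.02, AT90ES 1 at -0.29 and AT90ES 2 at -0.32. AT90ES 2 was the lowest array for 31 genes and AT90ES 1 for 10, while mock 2 was the highest for 28 and mock 1 for 13. The 2 AT90ES arrays thus lay close to each other and below both mock arrays over most of the module.

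**Figure D1:**
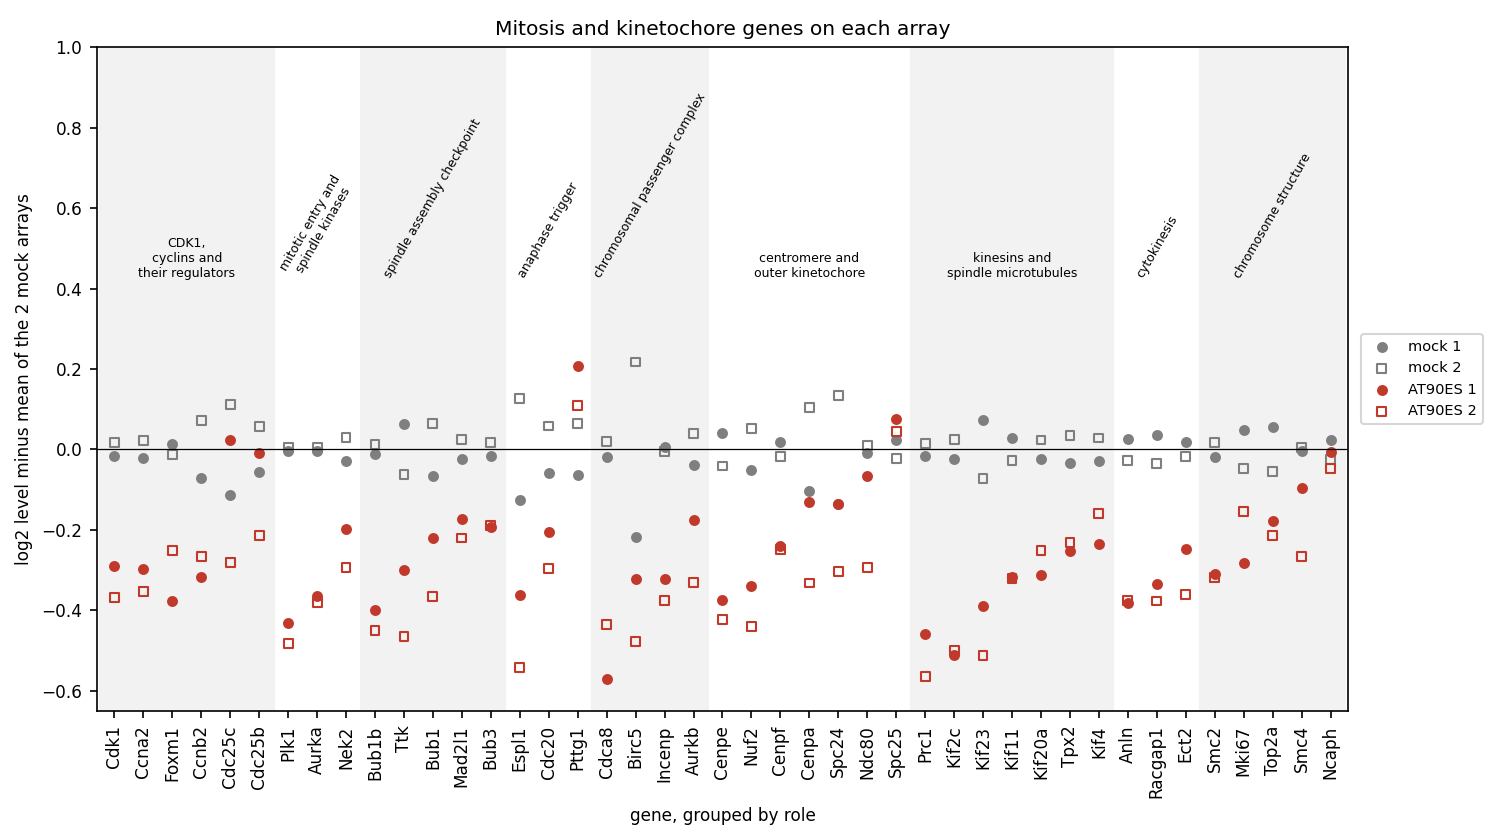
Each point is the log2 level of 1 gene on 1 array minus the mean of that gene on the 2 mock arrays; genes stand in groups by role, grey for mock and red for AT90ES, with filled circles for replicate 1 and open squares for replicate 2. Red points lie below grey points in 38 of the 43 genes, and above them in Pttg1 and Spc25.

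Among CDK1, its cyclins and their regulators, 6 of 7 genes were measured, with a median log2 fold change of -0.30. Fold changes from here on are log2 values of AT90ES over mock with the standard error from limma, for 2 arrays a group, and adjusted p-values are from limma over all genes. Cdk1, the kinase that drives mitotic entry, had log2 levels of 9.04 and 9.08 in mock cells against 8.77 and 8.69, a difference of -0.33 ± 0.12 (adjusted p = 0.489). Ccna2, or cyclin A2, which pairs with CDK1 and CDK2, had 9.99 and 10.04 against 9.72 and 9.66, and differed by -0.33 ± 0.11 (adjusted p = 0.490). They were at 79.6% and 79.8% of the mock level, and both passed in the fit with an intensity trend, at adjusted p-values of 0.0475 and 0.0125. Ccnb2, the cyclin B2 gene, had 9.42 and 9.57 against 9.18 and 9.23, and Foxm1, a transcription factor of G2 genes, had 9.05 and 9.02 against 8.66 and 8.78. The groups did not overlap in either gene, with differences of -0.29 ± 0.12 and -0.31 ± 0.12. In the genes of 2 phosphatases that activate CDK1 the groups overlapped. Cdc25b read 7.71 and 7.83 against 7.76 and 7.55, and Cdc25c read 7.68 and 7.90 against 7.81 and 7.51. In both genes AT90ES 1 lay among the mock values, and their intervals reached from -0.44 to 0.22 and from -0.52 to 0.26.

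The mitotic kinases had a median of -0.37 over 3 genes. In all 3, both AT90ES arrays were below both mock arrays, as in 22.1% of all genes. Plk1, which acts in mitotic entry, spindle assembly and cytokinesis, had 10.48 and 10.49 on the mock arrays against 10.05 and 10.00. That is -0.46 ± 0.11, or 72.8% of the mock level (95% interval -0.74 to -0.18, adjusted p = 0.361, and 0.000381 with an intensity trend). Aurka, the kinase of centrosomes and spindle poles, had 9.47 and 9.48 against 9.11 and 9.10. The arrays of each group were almost equal, and the gene differed by -0.37 ± 0.11 (adjusted p = 0.439, and 0.0112 with an intensity trend). Nek2, which helps part the centrosomes, had 7.90 and 7.96 against 7.73 and 7.63, a difference of -0.25 ± 0.12 (adjusted p = 0.608).

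All 5 spindle checkpoint genes had both AT90ES arrays below both mock arrays, as had 22.1% of all genes, with a median of -0.29. Bub1b, whose product BubR1 helps to inhibit the anaphase-promoting complex, had 8.53 and 8.55 against 8.14 and 8.09. It stood at 74.4% of the mock level (-0.43 ± 0.11, adjusted p = 0.383, and 0.0229 with the trend). Ttk, the kinase MPS1 that starts checkpoint signalling, had 8.70 and 8.57 against 8.34 and 8.17. Its difference was -0.38 ± 0.13 (adjusted p = 0.471). Bub1, a kinetochore kinase, had 9.41 and 9.54 against 9.25 and 9.11, a difference of -0.29 ± 0.13. The checkpoint subunits Mad2l1 and Bub3 had smaller differences, of -0.20 ± 0.11 and -0.19 ± 0.11.

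The 3 genes around the trigger of anaphase did not share a direction. Espl1 encodes separase, the protease that opens cohesin, and had 7.68 and 7.93 on the mock arrays against 7.44 and 7.26. That is -0.45 ± 0.15, or 73.1% of the mock level (adjusted p = 0.459). Cdc20, which activates the anaphase-promoting complex, had 9.26 and 9.38 against 9.12 and 9.03, a difference of -0.25 ± 0.12. Pttg1 encodes securin, the inhibitor of separase, and had 6.23 and 6.36 against 6.50 and 6.40. Its 2 AT90ES arrays were above both mock arrays, by 0.16 ± 0.12 (95% interval -0.15 to 0.46, adjusted p = 0.755), so separase and its inhibitor had point values of opposite sign. The test of that difference was not made, and the 2 intervals overlap.

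All 4 genes of the chromosomal passenger complex, which corrects faulty attachments and later works at the midzone, had groups that did not overlap. Both AT90ES arrays were below both mock arrays in each, as in 22.1% of all genes. Cdca8, or borealin, had 7.61 and 7.65 against 7.06 and 7.19, which is -0.50 ± 0.12 or 70.5% of the mock level (adjusted p = 0.336, and 0.0341 with an intensity trend). Incenp, the scaffold of the complex, had 8.32 and 8.31 against 8.00 and 7.94, a difference of -0.35 ± 0.11. Birc5, or survivin, had 7.55 and 7.99 against 7.45 and 7.29, and Aurkb, the kinase of the complex, had 9.39 and 9.47 against 9.25 and 9.10. The mock arrays of Birc5 were 0.434 apart, so its difference of -0.40 ± 0.18 was the least certain of the 43. Aurkb differed by -0.25 ± 0.12.

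The 7 centromere and outer kinetochore genes had a median of -0.23. Cenpe, a kinesin that carries chromosomes to the spindle equator, had 9.56 and 9.47 against 9.14 and 9.09, a difference of -0.40 ± 0.12 (adjusted p = 0.426, and 0.00855 with an intensity trend). Within the Ndc80 complex, the clamp between kinetochore and microtubule, values ran from below to above the mock level. Nuf2 had 9.40 and 9.50 against 9.11 and 9.01, a difference of -0.39 ± 0.12 (adjusted p = 0.447, and 0.0142 with an intensity trend). The partner Ndc80 had 9.59 and 9.61 against 9.53 and 9.31, a difference of -0.18 ± 0.13. Spc24 differed by -0.22 ± 0.15, and its groups were apart by only 0.000716. Spc25, the partner of Spc24 at the other end of the complex, had 8.14 and 8.09 against 8.19 and 8.16. Spc25 therefore stood at 0.06 ± 0.11 (95% interval -0.22 to 0.34). The differences between these 4 subunits were not tested, and their intervals overlap. Cenpa, the histone variant that marks centromeres, had 8.20 and 8.41 against 8.17 and 7.97, and Cenpf, a large kinetochore protein, had 8.08 and 8.04 against 7.82 and 7.81. The groups were apart in both, narrowly so in Cenpa, with differences of -0.23 ± 0.14 and -0.24 ± 0.11.

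Kinesins and other spindle microtubule genes held the 2 most negative values of the module. In all 7, both AT90ES arrays were below both mock arrays, as in 22.1% of all genes. Prc1, which bundles the antiparallel microtubules of the central spindle, had 10.04 and 10.07 on the mock arrays against 9.59 and 9.49. It was at 70.1% of the mock level (-0.51 ± 0.12, 95% interval -0.80 to -0.22, adjusted p = 0.323, and 0.000588 with an intensity trend). Kif2c, or MCAK, a kinesin that takes microtubules apart at centromeres, had 9.23 and 9.28 against 8.74 and 8.75. Both of its groups were tight, and it differed by -0.51 ± 0.11 (adjusted p = 0.308, and 0.00223 with an intensity trend). Kif23, the motor of the centralspindlin complex, had 9.93 and 9.78 against 9.47 and 9.34, a difference of -0.45 ± 0.13. Kif11, or Eg5, which pushes spindle poles apart, had 9.50 and 9.44 against 9.15 and 9.15, and Kif20a, a kinesin of the midzone, had 9.79 and 9.84 against 9.50 and 9.56. They differed by -0.32 ± 0.11 and -0.28 ± 0.12. Tpx2, which starts spindle assembly with Aurora A, had 9.81 and 9.87 against 9.59 and 9.61, a difference of -0.24 ± 0.11. Kif4, a kinesin of chromosomes and midzone, differed by -0.20 ± 0.12.

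The 3 cytokinesis genes were the group in which each gene reached an unadjusted p under 0.05 and each passed with an intensity trend. Of all genes, 4.59% and 0.73% did so as lower. Racgap1 pairs with Kif23 in centralspindlin, and had 9.86 and 9.79 against 9.49 and 9.45. Ect2, the exchange factor that activates RhoA at the furrow, had 10.76 and 10.73 against 10.50 and 10.38. Anln, or anillin, the scaffold of the contractile ring, had 10.65 and 10.59 against 10.24 and 10.24. The differences were -0.36 ± 0.12, -0.30 ± 0.12 and -0.38 ± 0.11, with adjusted p-values of 0.459, 0.536 and 0.436. With an intensity trend the adjusted p-values were 0.0102, 0.00866 and 0.00139.

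Genes of chromosome structure had the least negative median, -0.20, over 5 of 6 genes measured. Smc2 and Smc4 are the paired ATPases of condensin and Ncaph is a subunit that links them. Smc2 had 9.02 and 9.05 against 8.72 and 8.72, a difference of -0.31 ± 0.11 (adjusted p = 0.502). Smc4 differed by -0.18 ± 0.12, and Ncaph had 9.33 and 9.28 against 9.30 and 9.26, a difference of -0.03 ± 0.11 (95% interval -0.31 to 0.26). The groups overlapped in Ncaph, and the 3 intervals overlap one another. Top2a, which untangles DNA, had 10.02 and 9.91 against 9.79 and 9.75, and Mki67, the proliferation marker Ki-67, had 10.80 and 10.70 against 10.47 and 10.60. These 2 differed by -0.20 ± 0.12 and -0.22 ± 0.12, with groups that did not overlap.

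**Figure D2:**
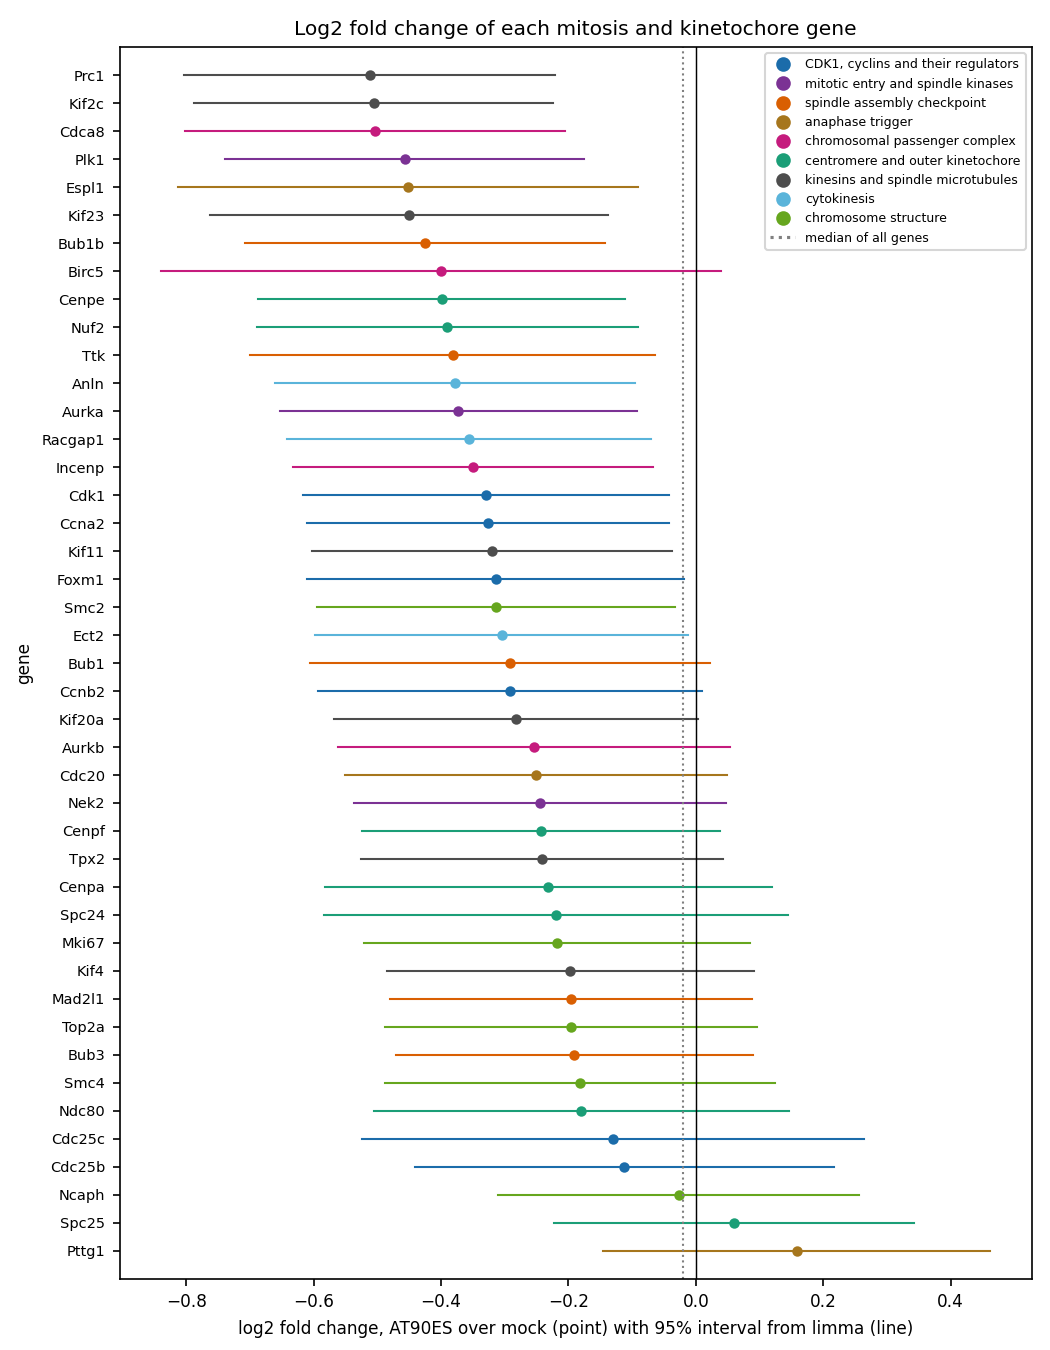
Points are the log2 fold changes of the 43 genes, AT90ES over mock, lines are the 95% intervals from limma with 2 arrays a group, colours show the role, and the dotted line is the median of all genes at -0.02. The intervals of 20 genes lie wholly below 0, and no interval lies wholly above it.

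Promoters of the module share sequence features that the choice of genes did not use. RefSeq promoter sequences of build GRCm38.p6, from 250 bases before the start to 50 after it, were matched for 34 of the 43 genes. There was no entry for Ccna2, Tpx2, Kif20a, Foxm1, Spc24, Aurkb, Incenp, Cdc25c and Smc4. Of the 34 genes, 3 had several starts, and only the first listed was searched. The CHR core was searched as TTTGAA or TTCGAA, the CCAAT box as CCAAT, and E2F-like sites as TTGGCGC or TTCGCGC or TTCCCGC, each on both strands. The motifs were allowed to overlap one another. The stretches of 30 bases that follow run 5′ to 3′ on the strand of the gene, with the CHR core nearest the start in capitals (TTCAAA is TTTGAA on the other strand). They come from genes that were lower at an unadjusted p under 0.05, with groups that did not overlap, and that hold this element near the start. Genes outside that rule also held the element near the start and are not shown, among them Spc25 (0.06), Cdc25b (-0.11) and Top2a (-0.20). The stretches are aligned on the element (except where the sequence ended, in Bub1b and Ect2), not on the start: its first base lay from 27 bases before the start in Espl1 to base 41 after it in Bub1b.
Prc1, chr7:80294434-80294463, plus strand: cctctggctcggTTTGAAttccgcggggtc
Plk1, chr7:122159453-122159482, plus strand: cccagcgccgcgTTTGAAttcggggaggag
Espl1, chr15:102296254-102296283, plus strand: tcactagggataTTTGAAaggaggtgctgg
Kif23, chr9:61946780-61946809, minus strand: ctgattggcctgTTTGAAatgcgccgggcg
Bub1b, chr2:118598231-118598260, plus strand: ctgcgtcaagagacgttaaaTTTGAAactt
Ttk, chr9:83834684-83834713, plus strand: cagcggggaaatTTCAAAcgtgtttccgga
Anln, chr9:22389168-22389197, minus strand: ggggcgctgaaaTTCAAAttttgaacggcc
Aurka, chr2:172370521-172370550, minus strand: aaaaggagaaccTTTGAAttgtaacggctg
Racgap1, chr15:99651634-99651663, minus strand: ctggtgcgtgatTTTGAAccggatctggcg
Cdk1, chr10:69352910-69352939, minus strand: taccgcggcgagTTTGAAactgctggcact
Kif11, chr19:37376351-37376380, plus strand: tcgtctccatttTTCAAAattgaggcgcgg
Smc2, chr4:52439235-52439264, plus strand: ctcgcgccgaaaTTCAAAggaacagttccg
Ect2, chr3:27153829-27153858, minus strand: gagagagcgactggattttTTTGAAtcgga

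The CHR core was found in 27 of the 34 promoters, or 79.4%, against 19.4% of the 27025 promoters of all genes. A CCAAT box was found in 26, or 76.5%, against 37.9%, and both together in 24, or 70.6%, against 7.70%. E2F-like sites were found in 4, or 11.8%, against 8.21%. In 29 promoters of DNA replication genes, which peak earlier in the cell cycle, the CHR core was in 20.7%, E2F-like sites in 62.1% and a CCAAT box in 65.5%, so the CCAAT box was common in both lists. Between 60 bases before the start and 50 after it, a window chosen after the positions were seen, 25 of the 34 promoters held the CHR core, or 73.5%, against 5.86% of all promoters. In the 250 bases before the start alone, the CHR core was in 12, or 35.3%, against 17.4%, since in many of these genes it lies at or just after the start.

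In 23 of the 25 promoters with a CHR core between 60 bases before the start and 50 after it, a CCAAT box stood before it. The spacing was not regular: from 4 to 148 bases lay between them, with a median of 30 and with 25 to 45 bases in 10 promoters. Pttg1, the gene with the most positive log2 fold change of the module, held none of the 3 motifs around the start used. Kif2c, at -0.51, also lacked such a pair, with no CCAAT box, while Spc25, at 0.06, held it. Such pairs show, with 28 and 12 bases between them, in the 120 bases before the start of Cdk1 and Espl1. These are printed beside those of Pttg1, with CCAAT boxes (ATTGG on the other strand) and CHR cores in capitals.
Cdk1, chr10:69352913-69353032, minus strand: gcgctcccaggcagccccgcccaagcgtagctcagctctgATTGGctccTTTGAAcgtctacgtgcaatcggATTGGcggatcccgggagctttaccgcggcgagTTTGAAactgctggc
Espl1, chr15:102296173-102296292, plus strand: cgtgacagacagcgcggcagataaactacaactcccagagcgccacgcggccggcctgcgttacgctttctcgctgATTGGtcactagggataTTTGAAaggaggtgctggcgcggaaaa
Pttg1, chr11:43425982-43426101, minus strand: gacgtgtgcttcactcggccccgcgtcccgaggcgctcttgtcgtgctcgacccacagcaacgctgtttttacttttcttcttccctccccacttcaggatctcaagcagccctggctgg

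Genes with and without these motifs had overlapping values. The median log2 fold change was -0.31 over the 27 genes with a CHR core and -0.25 over the 7 without one, a difference given as a description with no test. Spc25 held a CHR core and 2 CCAAT boxes with a point value of 0.06, while Nuf2 and Birc5, at -0.39 and -0.40, held none of the 3 motifs in this window. A match is a stretch of letters, not a measured binding site.

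**Figure D3:**
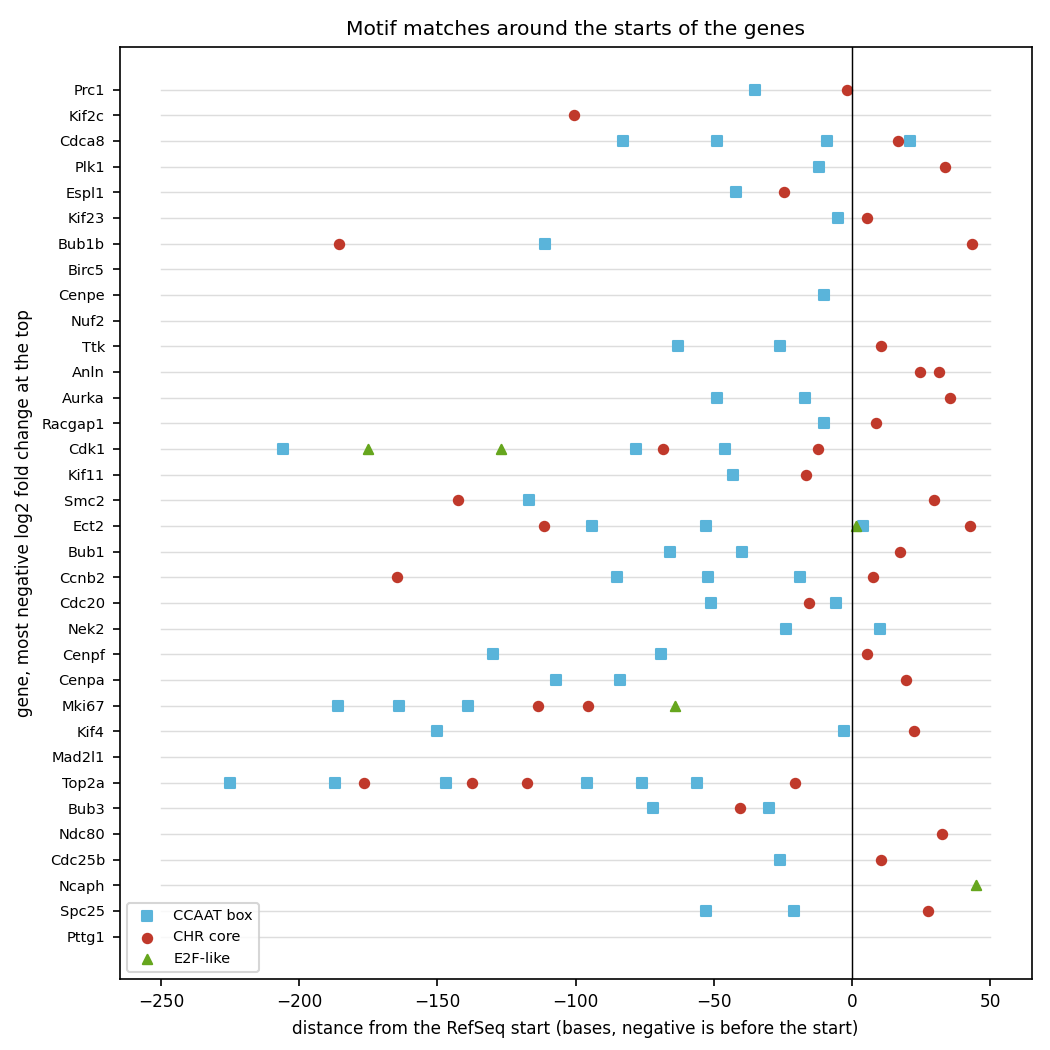
Each row is 1 of 34 genes, ordered by log2 fold change with the most negative at the top, and marks show the centres of CHR cores (circles), CCAAT boxes (squares) and E2F-like sites (triangles) by their distance in bases from the RefSeq start. CHR cores gather between 60 bases before the start and 50 after it, in 25 of the 34 genes, and CCAAT boxes stand mostly before them.

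Other genes of mitosis, from 5 lists of 124 symbols, also had mostly negative values. Of 112 measured, 95 or 84.8% had a negative log2 fold change, against 54.6% of all genes, and the median was -0.20. At an unadjusted p under 0.05, 31 or 27.7% were lower and 2 higher, against 4.59% and 4.5% of all genes. With an intensity trend, 16 or 14.3% were lower and 2 higher at an adjusted p under 0.05. Over all genes these shares were 0.73% and 1.94%. Other kinetochore and centromere genes had a median of -0.23 over 29 genes, among them Nsl1, of the Mis12 complex, at -0.60 ± 0.12 (adjusted p = 0.228). The next 3 by size among those with an unadjusted p under 0.05 were Knl1, the platform of the checkpoint, at -0.48, Sgo2a, a protector of centromeric cohesin, at -0.44, and Cenpi, at -0.41. Other spindle, kinesin and cytokinesis genes had a median of -0.30 over 31 genes, with 14 lower and 1 higher at an unadjusted p under 0.05. The higher one was Gtse1, which binds microtubules and also restrains p53. It had 9.81 and 9.81 on the mock arrays against 10.68 and 10.85, a difference of 0.95 ± 0.12 (adjusted p = 0.0652, and 1.11e-06 with an intensity trend). Kif18a, a kinesin that limits microtubule length, stood at -0.55, Kif20b at -0.51 and Cep55, which acts in abscission, at -0.50.

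The anaphase-promoting complex and its regulators had a median of -0.09 over 18 genes, with Fbxo5, its inhibitor EMI1, lowest at -0.66 ± 0.13 (adjusted p = 0.236, and 0.00379 with an intensity trend). Condensin and cohesin genes outside the module had a median of -0.11 over 16. Esco2, which acetylates cohesin in S phase, stood at -0.67 ± 0.17 (adjusted p = 0.369), followed by Cdca5, or sororin, at -0.49, and the condensin subunits Ncapd2 at -0.37 and Ncapd3 at -0.31. Genes of MuvB, DREAM and the control of mitotic entry had a median of -0.12 over 18, and held values of both signs. Wee1, the kinase that restrains CDK1, had 8.29 and 8.42 against 7.67 and 7.71, a difference of -0.66 ± 0.12 (adjusted p = 0.188, and 0.00217 with an intensity trend). Cdc25a, a phosphatase of CDK1 and CDK2, and Bora, an activator of Aurora A, were both at -0.52. Nfyb, a subunit of the CCAAT-binding factor NF-Y, had 6.42 and 6.72 against 7.34 and 7.14, a difference of 0.68 ± 0.16 (adjusted p = 0.324, and 0.0237 with an intensity trend).

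DNA replication genes, which act earlier in the cycle, are set beside the mitosis genes, with no test of the difference between the lists. Of 33 measured, 33 had a negative log2 fold change, against 54.6% of all genes. In 30 or 90.9% both AT90ES arrays were below both mock arrays, against 22.1% of all genes. An unadjusted p under 0.05 as lower was reached by 15 or 45.5%, against 4.59%. Their median was -0.31, beside -0.29 for the mitosis genes. With an intensity trend, 11 or 33.3% passed as lower, against 0.73% of all genes. Cdc6, which loads the replicative helicase, had the most negative value named here, -0.69 ± 0.12 (adjusted p = 0.166). Chaf1a, of a histone chaperone, stood at -0.59, Tk1, or thymidine kinase, at -0.51, and Gins1, of the helicase complex, at -0.48.

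**Figure D4:**
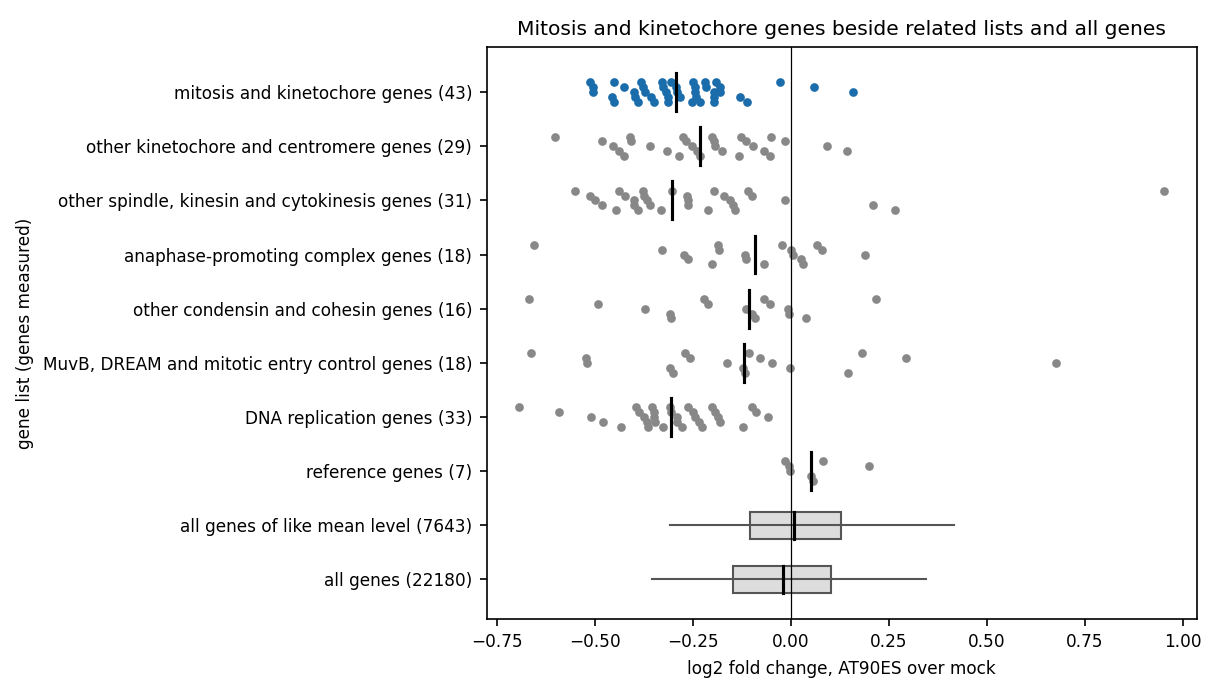
Each point is the log2 fold change of 1 gene, AT90ES over mock, by gene list, with black bars at the medians; for all genes and for those of like mean level, boxes span the quartiles and whiskers the 5th to 95th percentiles. The medians of the mitosis genes (-0.29) and the DNA replication genes (-0.31) lie left of that of all genes (-0.02), and Gtse1 stands alone at 0.95.

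**Figure D5:**
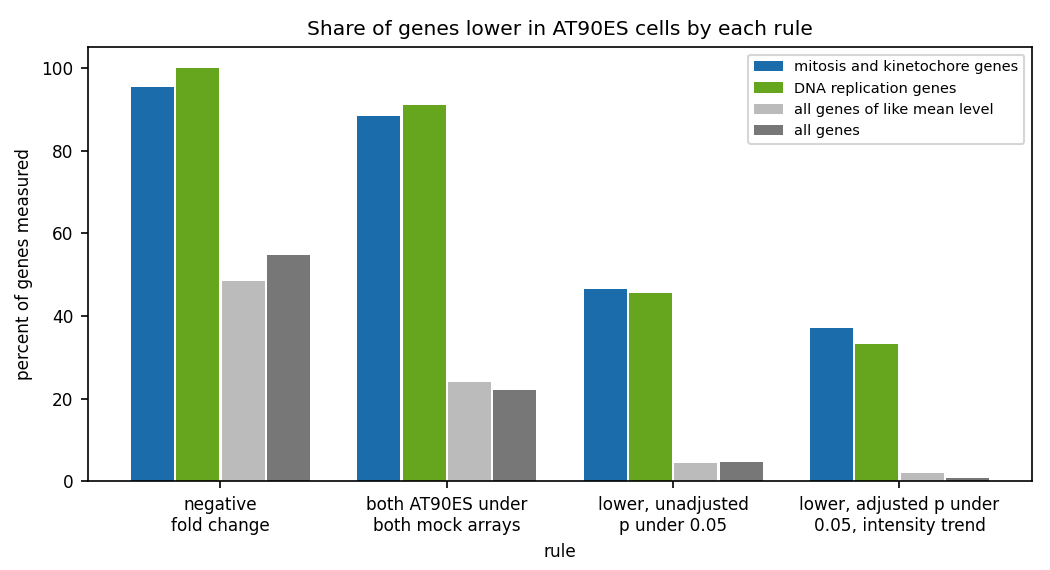
Bars give the percent of genes that were lower in AT90ES cells by each of 4 rules, from 0, for the 43 mitosis genes, the 33 DNA replication genes, 7643 genes of like mean level and all 22180 genes. By the rule of both AT90ES arrays below both mock arrays the mitosis genes reach 88.4% and all genes 22.1%.

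The labelled cell type was checked against its markers. Pigment genes of melanoma were above the 95th percentile of olfactory receptor genes, used as a floor for silent genes, on all arrays in 9 of 10 cases. Their median log2 fold change was -0.04, with 6 negative and 4 positive values. These ran from -0.34 for Mitf (limma adjusted p = 0.469, and 0.00483 with an intensity trend) to 0.28 for Gpr143 (limma adjusted p = 0.646). The leukocyte markers Ptprc, Itgam, Adgre1, Cd3e and Cd79a were below that floor on all arrays. Above it on all arrays were 4 of 9 myeloid, 1 of 8 lymphocyte and 4 of 10 fibroblast or endothelial markers. On at least 1 array, 5 myeloid, 1 lymphocyte and 8 fibroblast or endothelial markers were above it. The myeloid list had a median log2 fold change of -0.14, with 6 of 9 genes negative. Its 4 genes above the floor on all arrays, Cd68, Csf1r, Lyz2 and Fcer1g, had values of -0.15, -0.14, -0.24 and -0.31 (limma adjusted p of 0.761, 0.888, 0.642 and 0.581). The median level over the myeloid list was 4.98 and 5.01 on the 2 mock arrays against 5.05 and 5.17, close to the floor. The part of such cells in the results was not tested. All 43 mitosis genes were above the floor on all arrays. A set of 7 reference genes had a median of 0.05.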

How the data were processed

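The authors deposited log2 levels for each probe and array, which per the submitters' processing notes came from RMA; versions and settings are not given in the sources used here. RMA brings the arrays' distributions close together, so each change is read against the rest of the array. They were not equal in the deposited values. The median over all genes was 5.34 and 5.25 on the mock arrays against 5.23 and 5.31 on the AT90ES arrays. Groups came from the labels. Of 41345 probes, 23521 had 1 gene symbol in the platform annotation, 1814 had several and 16010 had none. One probe a gene, that with the highest mean, left 22180 genes.

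The groups were compared with limma 3.58.1 in R 4.3.3 (lmFit and eBayes, 2 residual and 3.70 prior degrees of freedom), with Benjamini-Hochberg adjustment over all genes and a threshold of 0.05. The fit was tested on simulated data with independent genes, which do not cover genes that vary together or shared differences between preparations. Genes of the module are given whatever their values; of each other list of cell cycle genes, up to 4 with an unadjusted p under 0.05, groups that do not overlap and the largest change are named. The members and lists were chosen with earlier results of these data known. Same-numbered arrays tended to deviate in opposite directions (correlation -0.222), so the main fit used no block. With 2 arrays a group, arrays of different number then deviated together to the same degree. A block for this crossed order was run only as an alternative. For arrays, their number limits the precision. Alternatives were an intensity trend, a filter on dim genes, other centring, another quantile step, other probe rules, replicate blocks and leaving out each array. Promoters were read from RefSeq, at the first start listed.

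One sequence of the module is not reported here.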

Additional observations from a re-analysis of the deposited data

How the results depend on the processing

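Over 13 alternatives, 41 genes of the module kept a negative log2 fold change, except that without AT90ES 2 the count was 40, with Cdc25c at 0.02; Pttg1 and Spc25 stayed positive. The count of module genes lower at an adjusted p under 0.05 was 0 except with an intensity trend, where it was 16. That is 37.2%, against 0.73% of all genes. With the trend and without 1 array (chosen after seeing the data), it fell without either mock array and rose without either AT90ES array. The count lower at an unadjusted p, 20, was 35 with the trend, 9 with arrays centred on their median, and 4 to 10 without 1 array. With the replicate number as a block it was 11. Crossed numbers, added after seeing the data, gave 22. For these alternatives the share of all genes lower at an unadjusted p was not counted. The 4.59% of all genes belongs to the main fit only, so whether each of these counts exceeds its own background cannot be told. The median log2 fold change of -0.29 was -0.27 with arrays centred on their median, -0.34 centred on reference genes, and between -0.32 and -0.26 without 1 array. The cause of these shifts was not tested.

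Over all genes, 0 were lower and 92 higher at an adjusted p under 0.05. These counts were 162 and 431 with the trend, 3 and 142 without dim genes, 4 and 172 with median centring, 0 and 28 with every probe tested, 0 and 59 with crossed numbers, and 0 and 32 to 47 without 1 array. With 2 arrays a group, differences of the size seen here lie near the limit of what can be told from the spread between arrays.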
